A study of Mus musculus with 6 samples.

Results

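Wipf3, Wnk1, Ptprz1, Pabpc1, Zfhx3 and Itga5 are 6 of the 13582 gene rows measured in the mouse cortex after resveratrol, a plant polyphenol studied for its protection of the brain against ischemia. They were selected on their measured FPKM values (fragments mapped to a gene, scaled for transcript length and library size), for lower levels after resveratrol with the library of vehicle 3 close to the resveratrol libraries. All 6 were found in the table, and all 6 passed the filter on low values. The tissue was the right cortex of 6 mice of the strain C57BL/6, killed at 10 weeks of age, and its RNA was sequenced 2 weeks after 1 intraperitoneal injection. In the vehicle group there were 3 mice and in the resveratrol group 3 mice, given 10 mg/kg. The same dose is written for vehicle mice, which were taken from the treatment text to have received no resveratrol. The series is about the long-lasting window in which resveratrol is studied as a preconditioning agent, and no ischemia is named for these samples.

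The 6 genes do unrelated work in brain cells. Wipf3 encodes a member of the WIP family, proteins that bind actin and N-WASP and so take part in the assembly of branched actin filaments. Wnk1 encodes a kinase that senses chloride and osmotic change and, through the kinases SPAK and OSR1, sets the activity of the cation-chloride cotransporters that fix chloride in neurons. Ptprz1 encodes a receptor tyrosine phosphatase and chondroitin sulfate proteoglycan of astrocytes and oligodendrocyte precursors, which binds pleiotrophin, midkine and contactin-1. Pabpc1 encodes the cytoplasmic poly(A) binding protein, which coats the tails of mRNAs and joins them to the translation initiation factor eIF4G. Zfhx3 encodes a large zinc finger homeobox transcription factor that is known for its part in the circadian clock of the suprachiasmatic nucleus. Itga5 encodes the alpha subunit that pairs with the beta 1 integrin to form the main fibronectin receptor, and in the brain it is known from blood vessels.

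The libraries differed along transcript length and along GC content, and the difference along length was present within the vehicle group. Deviations of a library from each gene's mean correlated with transcript length across 13035 genes with Spearman's rho of 0.318 for vehicle 1, 0.503 for vehicle 2 and -0.525 for vehicle 3, and between -0.327 and -0.00858 in the resveratrol libraries. Across genes, which are not independent replicates, the rho with GC content ran from -0.465 in resveratrol 1 to 0.586 in resveratrol 3. Neuronal markers (Rbfox3, Snap25, Syt1, Slc17a7 and Gad1) summed to between 2064 and 2498 FPKM in the 6 libraries, as cortex should hold. Markers of the neighbouring striatum were also present, at a sum of 256 to 673 FPKM in vehicle and 213 to 470 FPKM in resveratrol, and 4 measured markers of the choroid plexus summed to 14.2 to 111 FPKM in vehicle and 45.1 to 449.8 FPKM in resveratrol. Neither list had a gene in which vehicle 1 and vehicle 2 were both above the other 4 libraries. The sequencing depth per library is unknown, so no interval from counting error can be given.

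All 6 genes stood high in vehicle 1 and vehicle 2 and low in vehicle 3 and in every resveratrol library. For each of them the lower of the values of vehicle 1 and vehicle 2 lay above the highest of the other 4 libraries, an order found in 14.6% of the 13574 genes tested. In none of the 6 were all 3 vehicle libraries above all 3 resveratrol libraries, since vehicle 3 fell among or below the resveratrol libraries. That separation was seen in 2% of all genes. Both orders come from the values that chose the genes and are given as a description.

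**Figure D1:**
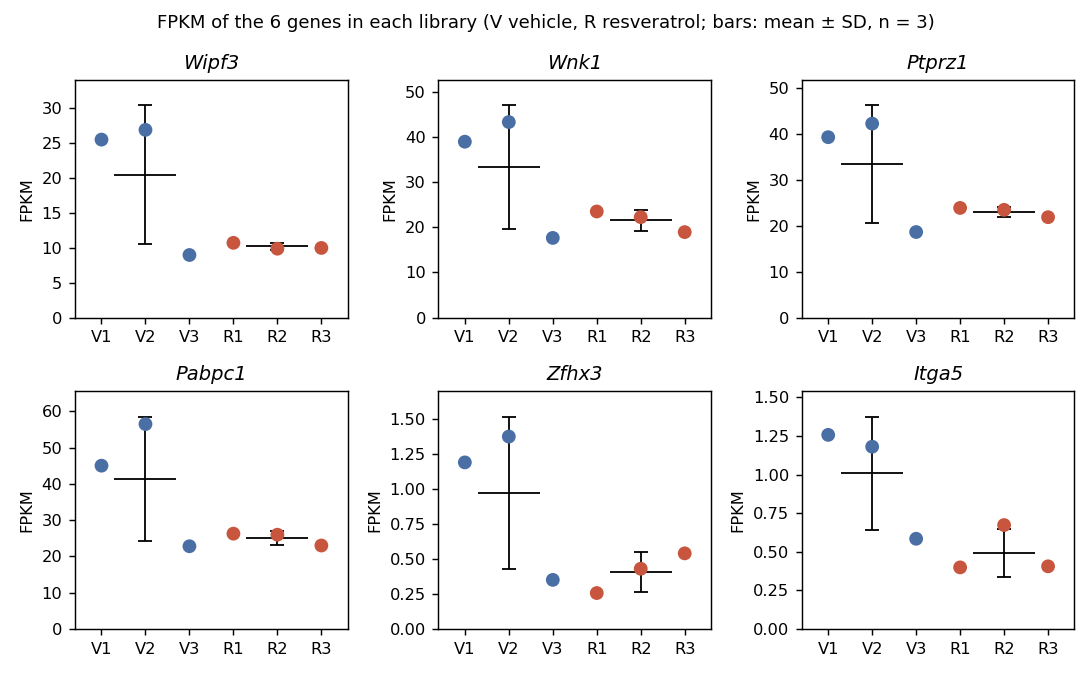
FPKM (vertical axis, from 0) of each gene in the 3 vehicle libraries (V1 to V3, blue) and the 3 resveratrol libraries (R1 to R3, red), with the group mean ± SD (n = 3) in black. In every panel V1 and V2 stand above the other 4 points and V3 lies with the resveratrol libraries. The vehicle error bars are wider than the resveratrol bars.

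Wipf3 showed the pattern with the largest separation. Its level was 25.4, 26.8 and 8.94 FPKM in vehicle 1, 2 and 3 and 10.7, 9.84 and 9.95 FPKM in resveratrol 1, 2 and 3. Vehicle 1 and 2 were close to each other, and vehicle 3 was the lowest of the 6 libraries. The vehicle mean was 20.4 ± 9.95 FPKM and the resveratrol mean 10.2 ± 0.455 FPKM (SD, n = 3 each), a log2 fold change of -0.82 ± 0.34 (SE) on the scale of log2(FPKM + 0.5). Within the vehicle group, vehicle 2 had 3.00-fold the level of vehicle 3, while the vehicle mean was 2.01-fold the resveratrol mean. The gap between the lower of vehicle 1 and 2 and the highest other library was 1.21 on the log2 scale, the largest of all 13574 genes.

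Wnk1 had 39.0, 43.4 and 17.7 FPKM in vehicle 1, 2 and 3 and 23.5, 22.3 and 18.9 FPKM in resveratrol 1, 2 and 3. The 3 resveratrol libraries lay between vehicle 3 below and vehicle 1 above. Its log2 fold change was -0.52 ± 0.28 (SE, n = 3 each), and vehicle 2 was 2.45-fold vehicle 3.

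Ptprz1 had 39.2, 42.2 and 18.6 FPKM in vehicle and 23.8, 23.4 and 21.8 FPKM in resveratrol, in the same order of libraries. The order of the 6 libraries from high to low was identical in Wnk1, Ptprz1 and Pabpc1, with vehicle 2 first, vehicle 1 second and vehicle 3 last. The resveratrol libraries of Ptprz1 differed among themselves by only 1.09-fold, and its log2 fold change, -0.44 ± 0.26 (SE), was the smallest in size of the 6 genes.

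Pabpc1 had 45.002, 56.5 and 22.8 FPKM in vehicle and 26.3, 25.97 and 22.99 FPKM in resveratrol. Vehicle 2 exceeded vehicle 1 by 1.25-fold, more than in any other of the 6, and vehicle 3 and resveratrol 3 were nearly equal. The means were 41.4 ± 17.1 and 25.1 ± 1.81 FPKM (SD, n = 3 each), and the log2 fold change was -0.62 ± 0.27 (SE). Of its 50-base words 20.7% also occur in transcripts of other genes, so reads of Pabpc1 copies could have been split or added by the authors' counting, and its level is uncertain. The share was at most 0.137% in the other 5 genes.

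Zfhx3 and Itga5 had group means of about 1 FPKM or less, close to the filter on low values at 0.5 FPKM. Their resveratrol means, 0.408 and 0.492 FPKM, were below it. They passed because the vehicle values raised the mean over the 6 libraries. Zfhx3 had 1.19, 1.37 and 0.350 FPKM in vehicle and 0.256, 0.430 and 0.540 FPKM in resveratrol. Here resveratrol 1 and not vehicle 3 was lowest, and the resveratrol libraries differed by 2.11-fold, so the spread within that group was wider than in the 4 abundant genes. Itga5 had 1.26, 1.18 and 0.584 FPKM in vehicle and 0.399, 0.673 and 0.405 FPKM in resveratrol. It was the only gene of the 6 in which vehicle 1 exceeded vehicle 2, and vehicle 3 lay above 2 of the 3 resveratrol libraries. The log2 fold changes were -0.63 ± 0.29 for Zfhx3 and -0.58 ± 0.23 for Itga5 (SE, n = 3 each). On this scale the change of such low genes is understated.

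Over the 6 genes the median log2 fold change was -0.60, beside 0.02 over all genes tested. With limma 0 of the 6 passed an adjusted p of 0.05 for lower levels, beside 0% of all genes. At an unadjusted limma p under 0.05, 107 of all 13574 genes tested were lower, with 3 of the 6 among them. The authors' deposited table lists all 6 with a q-value under 0.05, beside 0.633% of its rows (86 lower genes of 13582). The log2 fold changes in the authors' deposited table were -1.01 for Wipf3, -0.63 for Wnk1, -0.53 for Ptprz1, -0.72 for Pabpc1, -1.25 for Zfhx3 and -1.03 for Itga5. Of the 86 genes that the authors' deposited table calls lower, 85 could be tested here, and vehicle 1 and vehicle 2 were both above the other 4 libraries in 66 of them (77.6%). In 12 of the 85 all 3 vehicle libraries were above all 3 resveratrol libraries. Over all genes tested the first order was found in 14.6% and the second in 2%. The 6 genes were picked on this contrast, so neither set of calls is evidence about them.

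The fold change of each gene turned on which vehicle libraries were kept. Without vehicle 3 the log2 fold changes ran from -0.80 (Itga5) to -1.32 (Wipf3). In that fit 5 genes were lower at a limma adjusted p under 0.05 (0.0368% of 13574), and 4 of these were Wipf3 (adjusted p = 0.00214), Pabpc1 (0.0410), Ptprz1 (0.0410) and Wnk1 (0.0420), with Kcnj10 as the fifth. The 6 genes were picked for a low vehicle 3, so that these calls appear without it is a description and no evidence. Without vehicle 1 the values were smaller in size, between -0.28 (Ptprz1) and -0.59 (Wipf3). Without vehicle 2 they lay between -0.23 and -0.55. With vehicle 3 as the only vehicle library, a setting added once the data had been seen, 5 of the 6 values changed sign. They were then 0.17 for Wipf3, 0.28 for Wnk1, 0.30 for Ptprz1, 0.13 for Pabpc1 and 0.08 for Zfhx3, while Itga5 kept a value of -0.14. That fit takes the spread of the lone vehicle library from the resveratrol group. Leaving out any single resveratrol library left all 6 values between -0.40 and -0.86.

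**Figure D2:**
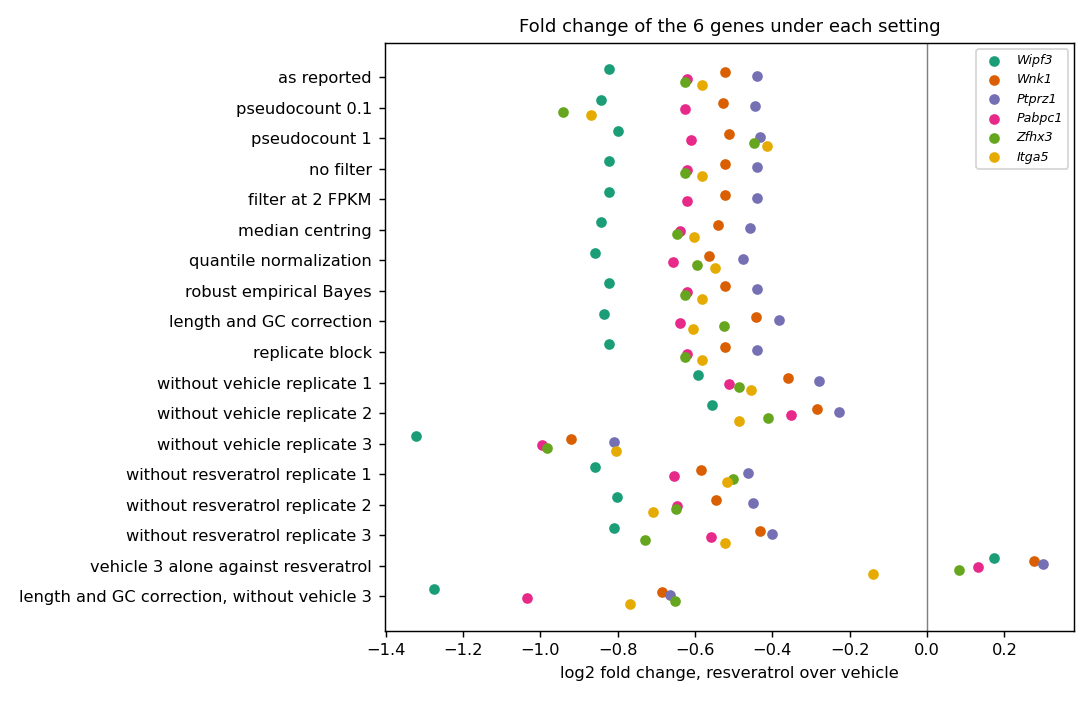
Log2 fold change of resveratrol over vehicle (horizontal axis) for each of the 6 genes (colours) under each setting (rows), with a grey line at no change. All points lie left of the line except 5 of the 6 in the row where vehicle 3 is the only vehicle library, and leaving out vehicle 3 moves every gene left of its reported value.

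This order of libraries was more common among genes with longer transcripts. Among 741 genes with transcripts under 1000 bases, 2.16% had vehicle 1 and vehicle 2 above the other 4 libraries. The share was 9.23% between 2000 and 4000 bases, 25.1% between 4000 and 8000 bases and 47.3% among the 785 genes of at least 8000 bases. In that longest class the median deviation from the gene's mean came to 0.11 for vehicle 1, 0.18 for vehicle 2 and -0.21 for vehicle 3 on the log2 scale, and in the class under 1000 bases it was -0.09, -0.26 and 0.19.

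Of the 6 genes, 3 belong to the longest class. The longest coding transcript of Zfhx3 has 17152 bases, longer than 99.8% of listed genes, that of Wnk1 has 11330 bases (98.5%) and that of Ptprz1 has 8068 bases (94.2%). Wipf3 (4516 bases, 71.8%) and Itga5 (4382 bases, 69.9%) are moderately long. Pabpc1, with 2817 bases, is shorter than the median listed transcript of 3205 bases. Deviations of the genes themselves were larger in size than the median of their length class in vehicle 1, 2 and 3. Since the genes were picked on these values, this is a description, and the part of length in their pattern was not tested. In vehicle 2 the deviations ran from 0.48 (Itga5) to 0.95 (Wipf3), and in vehicle 3 from -0.15 (Itga5) to -0.59 (Wipf3).

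**Figure D3:**
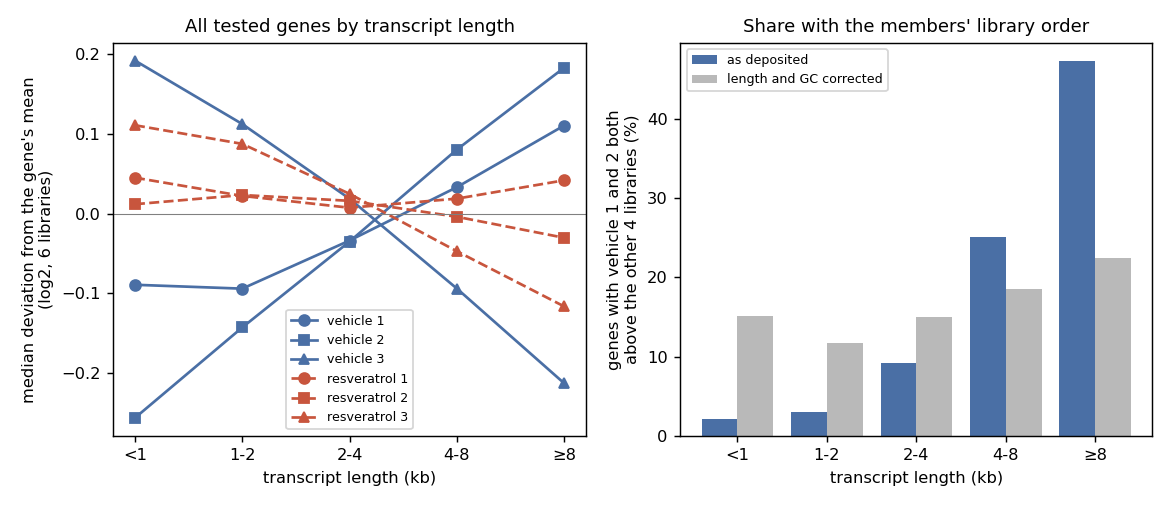
Left, the median deviation of all tested genes from their mean over the 6 libraries (vertical axis, log2) in 5 classes of transcript length (horizontal axis, kb) for each library. Right, the percentage of genes in each class with vehicle 1 and vehicle 2 above the other 4 libraries, as deposited (blue) and after correction (grey). Vehicle 1 and 2 rise with length and vehicle 3 falls, and the blue bars go from 2.16% to 47.3%.

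Each library was then corrected for its trend with transcript length and GC content. All 6 genes kept vehicle 1 and vehicle 2 above the other 4 libraries, an order then found in 15.9% of 13035 genes. They were picked on these values before correction, so that they kept the order is a description and no evidence. The correction acted unevenly on them. Pabpc1, Wipf3 and Itga5 kept nearly the same difference between groups. Their corrected log2 fold changes were -0.64 ± 0.29, -0.83 ± 0.31 and -0.60 ± 0.21 (SE). Those of Wnk1 (-0.44 ± 0.18), Ptprz1 (-0.38 ± 0.20) and Zfhx3 (-0.52 ± 0.19) shrank in size but stayed negative. For the gap between vehicle 1 and 2 and the other libraries, Pabpc1 and Wipf3 had the ranks 5 and 1. The gap of Pabpc1 was 0.77 before and 0.79 after correction, and in the other 5 genes it narrowed. That of Wipf3 went from 1.21 to 1.07, that of Wnk1 went from 0.72 to 0.59 (rank 7 to 27), that of Ptprz1 from 0.71 to 0.60 (rank 8 to 22) and that of Zfhx3 from 0.70 to 0.31 (rank 10 to 212). Itga5 went from a gap of 0.52 to 0.35 (rank 38 to 150). In both low genes vehicle 3 then lay above every resveratrol library, but by small margins. Its corrected deviation in Zfhx3 was 0.01, beside -0.05 in resveratrol 3. In Itga5 it was -0.02, beside -0.08 in resveratrol 2. So 2 of the 6 had all 3 vehicle libraries above all 3 resveratrol libraries after correction, beside 4.62% of 13035 genes. Both genes lie near the filter and were picked on these values, so this too is a description. After correction the share of genes with this order of libraries was 22.4% in the longest class, down from 47.3%, and 15.1% in the shortest, up from 2.16%. Over all genes tested it was 14.6% before and 15.9% after.

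Wnk1, Ptprz1 and Pabpc1 resembled each other more than any of them resembled Wipf3, Zfhx3 or Itga5. The 6 were picked on these same values, so their likeness is a description. As a measure of likeness the root-mean-square difference of 2 genes over the 6 libraries was taken, after centring each gene on its own mean. Genes were not scaled to a common spread, so the size of a gene's differences counts as well as their order. The measure was 0.0749 on the log2 scale between Wnk1 and Ptprz1, 0.0810 between Wnk1 and Pabpc1 and 0.113 between Ptprz1 and Pabpc1. Wipf3 differed from Pabpc1 by 0.183 and from Ptprz1 by 0.234, while Ptprz1 differed from Zfhx3 by 0.194 and from Itga5 by 0.209. The widest difference, 0.340, was between Wipf3 and Itga5. Of 10993 other named genes averaging 2 FPKM or more (10994 for Zfhx3 and Itga5), the 3 most like Ptprz1 were Peak1 (0.0668), Ccnk (0.0701) and Wnk1, and the 3 most like Wnk1 were Ptprz1, Pabpc1 and Ccnk (0.0897). Closest to Pabpc1 were Wnk1, Smap2 (0.0897) and Gpc4 (0.0922), and closest to Wipf3 were Pabpc1, Rnf165 (0.185) and Wnk1. Zfhx3 had Hipk2 (0.110), Peg10 (0.116) and C4b (0.122) nearest to it, and Itga5 had Zfp383 (0.123), Sez6 and Rfx4 (both 0.145). Zfhx3 and Itga5 average less than 2 FPKM, so they could not be listed as nearest to another gene. Of genes outside the 6, Kcnj10, a potassium channel of astrocytes, had the widest gap, with 23.8, 31.5 and 6.60 FPKM in vehicle and 11.3, 8.82 and 8.61 FPKM in resveratrol.

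In the genome 3 of the 6 genes lie on chromosome 6 and 2 on chromosome 15, far apart on each. In GENCODE M21 (GRCm38) Ptprz1 spans chr6:22875502-23052916 on the plus strand, Wipf3 spans chr6:54429603-54503768 on the plus strand and Wnk1 spans chr6:119923969-120038672 on the minus strand. Pabpc1 spans chr15:36595661-36609668 and Itga5 spans chr15:103344286-103366763, both on the minus strand, and Zfhx3 spans chr8:107942644-108961630 on the plus strand. Their longest coding transcripts have 9 exons in Wipf3, 15 in Pabpc1, 16 in Zfhx3, 28 in Wnk1 and 30 in both Ptprz1 and Itga5. The part that follows the coding sequence is long in Zfhx3 (4531 bases), Wipf3 (2752) and Wnk1 (2402) and shorter in Itga5 (986), Ptprz1 (807) and Pabpc1 (442).

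Promoter sequences from RefSeq (GRCm38.p6) were matched for 5 of the 6 genes. The 250 bases before the RefSeq start are shown for Wnk1 and Ptprz1, whose library profiles were the most alike, and for Wipf3, which had the widest gap. Capitals mark the GC box GGGCGG on either strand. The windows are chr6:120038656-120038905 on the minus strand for Wnk1, chr6:22875252-22875501 on the plus strand for Ptprz1 and chr6:54429436-54429685 on the plus strand for Wipf3.
Wnk1: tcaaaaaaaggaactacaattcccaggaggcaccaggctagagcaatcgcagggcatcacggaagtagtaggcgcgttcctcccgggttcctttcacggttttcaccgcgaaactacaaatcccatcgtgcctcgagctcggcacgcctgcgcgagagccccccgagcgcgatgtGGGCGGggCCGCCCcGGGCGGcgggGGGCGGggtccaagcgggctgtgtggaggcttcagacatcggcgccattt
Ptprz1: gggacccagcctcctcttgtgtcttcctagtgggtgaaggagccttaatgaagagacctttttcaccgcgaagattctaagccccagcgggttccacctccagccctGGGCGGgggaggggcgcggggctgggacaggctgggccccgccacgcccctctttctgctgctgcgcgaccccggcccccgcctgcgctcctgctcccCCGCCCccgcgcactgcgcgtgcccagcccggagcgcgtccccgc
Wipf3: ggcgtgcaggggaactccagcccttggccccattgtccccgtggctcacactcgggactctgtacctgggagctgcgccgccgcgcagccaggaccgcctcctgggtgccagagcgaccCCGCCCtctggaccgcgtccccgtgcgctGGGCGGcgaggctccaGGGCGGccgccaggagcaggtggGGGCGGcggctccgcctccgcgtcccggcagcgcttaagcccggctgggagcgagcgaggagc

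These windows are rich in GC, with 64% G and C in Wnk1, 71.6% in Ptprz1 and 76% in Wipf3, where the median of 32851 windows of the same length is 52.4%. They hold 26, 22 and 28 CpG pairs, where the median window holds 6. The GC box occurs 4 times in Wnk1, 2 times in Ptprz1, 4 times in Wipf3 and 2 times in Itga5, and it does not occur in the window of Zfhx3. Of all windows 32.7% hold it. The RefSeq starts of Wipf3, Wnk1 and Zfhx3 lie inside the GENCODE spans given above, so their windows overlap those spans in part or in whole. None of the 5 windows holds CCAAT (33.8% of all windows), TATAAA (12.4%), TGACGTCA (1.55%) or CACGTG (6.02%) on either strand, so none of these overlaps a marked GC box.

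The relatives of each gene were then read in the same libraries. They were taken by role, as partners or family members, with earlier results of these data known. Of the 37 relatives, 15 had vehicle 1 and vehicle 2 above the other 4 libraries. Over the full lists below, the share with this order ran from 16.2% to 31.2%. None of the 37 passed the limma test, and their log2 fold changes are given as measured with SE (n = 3 each). Shares of a list with this order stand beside the 14.6% of all genes, and counts of lower values beside the 43.9% of all genes that were lower in resveratrol.

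**Figure D4:**
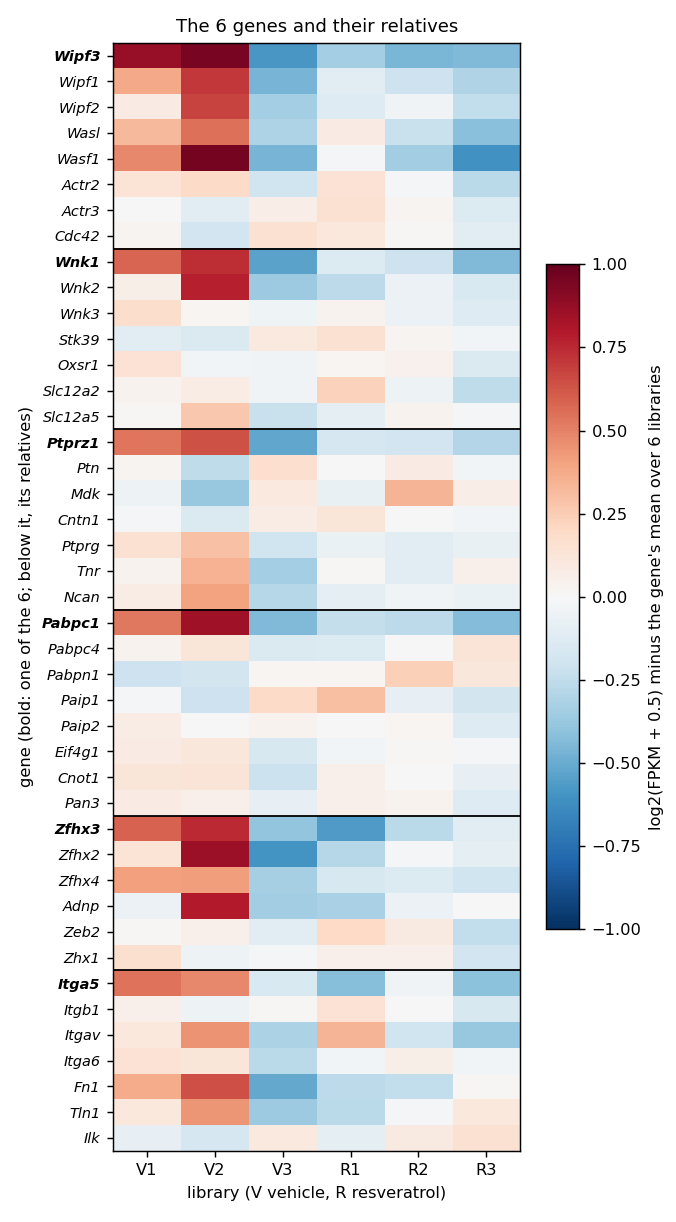
Deviation of log2(FPKM + 0.5) from the gene's mean over the 6 libraries (colour, red above and blue below, limits at 1 and -1) for the 6 genes (bold) and their relatives (rows) in each library (columns). The 6 genes are red in vehicle 1 and 2 and blue in the other 4 libraries, and 15 of the 37 relatives, Wipf1, Wasf1, Zfhx4 and Fn1 among them, have vehicle 1 and 2 above the other 4.

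Around Wipf3, both other members of the WIP family and the nucleation promoters Wasl, Wasf1 and Wasf2 shared its order, while the nucleation promoter Wasf3 did not. Wipf1 had 2.28, 2.99 and 1.05 FPKM in vehicle and 1.48, 1.35 and 1.24 FPKM in resveratrol (log2 fold change -0.41 ± 0.27). Wipf2 differed by -0.28 ± 0.22 and Wasl, which encodes N-WASP, by -0.38 ± 0.21. Wasf1, the WAVE1 protein that turns on the Arp2/3 complex downstream of Rac, had 43.3, 60.3 and 22.2 FPKM in vehicle and 30.5, 24.2 and 20.2 FPKM in resveratrol (-0.64 ± 0.30). Its transcript has 2719 bases, in the class where 9.23% of genes had this order. The authors' deposited table calls Wasf1 lower at q = 0.0115, the only gene of this list with a call there. Wipf1 (4728 bases), Wipf2 (7011), Wasl (4352) and Wasf2 (5642) lie in the class of 4000 to 8000 bases. There 25.1% of genes had this order, and Wasf3 (5196 bases), without it, lies there too. The Arp2/3 subunits Actr2 (-0.09 ± 0.14) and Actr3 (0.03 ± 0.11) and the GTPase Cdc42 (0.01 ± 0.13) did not share the order. Over the 28 tested genes of actin assembly other than Wipf3, 12 were lower and 16 higher, the median was 0.00, 8 had the order of Wipf3 (28.6%), and 0 passed limma.

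Around Wnk1, the paralog Wnk2 had 8.71, 14.6 and 6.35 FPKM in vehicle and 6.87, 7.99 and 7.44 FPKM in resveratrol (-0.31 ± 0.24). Wnk3 differed by -0.10 ± 0.11. The kinases that WNK proteins activate showed no such order, with 0.10 ± 0.11 for Stk39 (SPAK) and -0.05 ± 0.11 for Oxsr1 (OSR1). The cotransporters Slc12a2 (NKCC1, -0.05 ± 0.13) and Slc12a5 (KCC2, -0.04 ± 0.13) were also near no difference. Of 16 tested genes of this pathway other than Wnk1, 9 were lower and 7 higher with a median of -0.01, 3 shared the order (18.8%), and 0 passed limma. Wnk4 was not tested.

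Around Ptprz1, its soluble ligands did not follow it. Pleiotrophin (Ptn) had 116, 95.3 and 127 FPKM in vehicle and 114, 120.2 and 112 FPKM in resveratrol (0.04 ± 0.13), with vehicle 3 highest where Ptprz1 was lowest. Midkine (Mdk) differed by 0.22 ± 0.16 and contactin-1 (Cntn1) by 0.06 ± 0.11. The related phosphatase Ptprg (-0.16 ± 0.13) and the proteoglycan neurocan (Ncan, -0.13 ± 0.16) shared the order of Ptprz1, while tenascin-R (Tnr, -0.03 ± 0.16) did not. Over 32 tested genes of ligands, partners and matrix 22 were lower and 10 higher, with a median of -0.06, 10 shared the order (31.2%), and 0 passed limma.

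Some markers of the cells that carry Ptprz1 had the same order of libraries. The 5 astrocyte markers (Aqp4, Gfap, Aldh1l1, Slc1a2 and Gja1) summed to 653, 748.5 and 418.5 FPKM in vehicle 1, 2 and 3 and to 499.9, 481 and 450.1 FPKM in resveratrol 1, 2 and 3, and 2 of the 5, Slc1a2 and Gja1, had vehicle 1 and 2 above the other libraries. Most of this sum was Slc1a2, a glutamate transporter with a transcript of 11595 bases, at 492.5, 584 and 269.6 FPKM in vehicle and 358, 336 and 294 FPKM in resveratrol. Without it the other 4 markers summed to 160.3, 164 and 149 FPKM in vehicle and 142, 145 and 156 FPKM in resveratrol, with resveratrol 3 above vehicle 3. Aldh1l1 had a log2 fold change of 0.21 ± 0.11, opposite in sign to the other 4. Those of oligodendrocyte precursors summed to 47.3 to 57.2 FPKM in vehicle and 40.6 to 50.3 FPKM in resveratrol, with the order in 3 of 5 (Pdgfra, Cspg4 and Gpr17). The part of these cells in the result was not tested. In bulk tissue, fewer cells of a type and less RNA per cell cannot be told apart.

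Around Pabpc1, the family member Pabpc4 stayed level, with 9.81, 10.5 and 8.59 FPKM in vehicle and 8.64, 9.55 and 10.5 FPKM in resveratrol (-0.01 ± 0.12). Pabpc2, Pabpc6 and Pabpc1l were not tested. The nuclear poly(A) binding protein Pabpn1 had 34.8, 35.4 and 40.99 FPKM in vehicle and 41.01, 47.6 and 43.7 FPKM in resveratrol (0.25 ± 0.11). Its vehicle 3 and resveratrol 1 were nearly equal. The Pabpc1 regulators Paip1 (0.03 ± 0.15) and Paip2 (-0.07 ± 0.10) did not share the order of Pabpc1. Eif4g1 (-0.02 ± 0.11), Cnot1, the scaffold of the main deadenylase (-0.02 ± 0.12), and Pan3 of the PAN2-PAN3 deadenylase (-0.03 ± 0.11) had vehicle 1 and 2 highest, but by small margins. Of 37 tested genes in this list 22 were lower and 15 higher with a median of -0.02, 6 shared the order (16.2%), and 0 passed limma.

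Around Zfhx3, both paralogs had vehicle 1 and 2 highest. Zfhx4 had 3.30, 3.33 and 1.77 FPKM in vehicle and 2.06, 2.10 and 1.99 FPKM in resveratrol (-0.33 ± 0.21), and Zfhx2 had 2.69, 4.73 and 1.41 FPKM and 1.88, 2.37 and 2.20 FPKM (-0.26 ± 0.30). Their transcripts have 13874 and 10397 bases, so they fall in the longest class as Zfhx3 does. Adnp (-0.25 ± 0.26), Zeb2 (0.03 ± 0.13) and Zhx1 (-0.06 ± 0.11), other factors with homeodomains, did not share the order. Over 20 tested factors 13 were lower and 7 higher with a median of -0.03, 4 shared the order (20%), and 0 passed limma.

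Around Itga5, its partner Itgb1 stood at 24.1, 22.5 and 23.4 FPKM in vehicle and 25.9, 23.4 and 20.8 FPKM in resveratrol, a log2 fold change of -0.005 ± 0.11. Fibronectin (Fn1), the ligand, also had vehicle 1 and 2 highest. It had 5.70, 6.99 and 2.86 FPKM in vehicle and 3.49, 3.53 and 4.33 FPKM in resveratrol (-0.34 ± 0.26). Vehicle 3 was lowest in Fn1, while resveratrol 1 was lowest in Itga5. Talin 1 (Tln1, -0.12 ± 0.20) and Itga6 (0.00 ± 0.14) had vehicle 1 and 2 highest, and Itgav (-0.16 ± 0.22) and Ilk (0.10 ± 0.11) did not. The transcripts of Fn1 and Tln1 have 8315 and 8393 bases, in the longest class, where 47.3% of genes had this order. Over 36 tested genes of integrin adhesion 22 were lower and 14 higher with a median of -0.04, 10 shared the order (27.8%), and 0 passed limma.

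The vessel markers that Itga5 could follow did not move as a block. The 5 endothelial markers summed to 39.5, 33.2 and 25.9 FPKM in vehicle 1, 2 and 3 and to 30.9, 31.1 and 34.8 FPKM in resveratrol 1, 2 and 3, and Flt1 and Cdh5 had vehicle 1 and 2 highest. The 5 mural cell markers summed to 41.4 to 42.7 FPKM in vehicle and 42.3 to 46.3 FPKM in resveratrol, with the order in 1 of 5 (Pdgfrb), and those of microglia to 135 to 143 FPKM and 131 to 139.6 FPKM, with the order in 1 of 5. Their part in the level of Itga5 was not tested.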

How the data were processed

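Total RNA from the right cortex of 6 mice was sequenced after removal of ribosomal RNA with a stranded kit, per the labels' protocols, and groups were taken from the sample titles. The deposited table gives FPKM per library, which the authors computed, with log2 group values and fold change, and for each gene the deposited p-value and q-value of the authors' test. STAR, Cufflinks, Cuffdiff and the build GRCm38 are named in the submitters' processing notes, with annotation, strand setting and gene filter not given in the sources used here. Loci in the table were not used. Each group is described as having 3 mice, so libraries were treated as separate animals. A few entries do not read as numbers: 2 values had failed, and their genes were left out.

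Genes averaging 0.5 FPKM or more over the 6 libraries were tested with limma 3.58.1 (R 4.3.3). The model was fitted to log2(FPKM + 0.5), trended on intensity, two-sided, adjusted by Benjamini-Hochberg over 13574 genes at a threshold of 0.05. The fit was tested on simulated data. Transcript length and GC content came from the longest coding transcript in GENCODE M21, matched by name for 96.0% of rows, and each library's deviations were corrected for both by loess (span 0.5). Depth could not be recovered: at the best step, 24.8% to 29.6% of scaled low values lay within 0.1 of a whole number. The members, lists and relatives were chosen with earlier results of these data known. The relatives are those listed for their role, the genes of most like pattern are the 3 with the smallest root-mean-square difference, and Kcnj10 was named after its values were seen. Alternatives were other pseudocounts (0.1 and 1), filters (none and 2 FPKM), scalings, robust empirical Bayes, the length and GC correction, a replicate block and each library left out. Fits with vehicle 3 as the only vehicle library, and with correction and without vehicle 3, were added after seeing the data.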

Additional observations from a re-analysis of the deposited data

How the results depend on the processing

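The limma calls over all genes were 1 higher (the joint row of Eif3j1 and Eif3j2) and 0 lower. They were 0 higher with the length and GC correction, between 1 and 3 higher and 0 and 5 lower when a single library was left out (5 lower without vehicle 3), 3 higher with vehicle 3 as the only vehicle library, and 0 higher and 1 lower with the correction and without vehicle 3. The correction does not cover the joint row, which has no single transcript length; the cause of the other changes was not tested. With the replicate number as a block the calls were 1 higher and 0 lower. Same-numbered libraries deviated together with r = 0.04, 0.15 and 0.18, and vehicle 1 was closest to resveratrol 2 (0.26), so the numbers were not read as pairs. Over 15 other settings (those with vehicle 3 alone, or corrected without it, not counted) Wipf3 ranged from -1.32 to -0.55, Wnk1 from -0.92 to -0.28, Ptprz1 from -0.81 to -0.23 and Pabpc1 from -0.996 to -0.35. Under the 14 that gave Zfhx3 and Itga5 a value, which the filter at 2 FPKM did not, they ranged from -0.98 to -0.41 and from -0.87 to -0.42. Zfhx3 and Itga5 depend on the pseudocount, at -0.94 and -0.87 with 0.1 and -0.45 and -0.42 with 1. The depth is unknown for all genes.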
